A study of Mus musculus with 94 samples.

Results

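The nuclear-encoded respiratory chain genes were taken by name from the gene table of single mouse basophils. Symbols starting with Nduf (subunit letters a, b, c, s and v), Sdha to Sdhd, symbols starting with Uqcr, Cox4 to Cox8 genes with a subunit letter (a, b or c), and symbols starting with Atp5 were matched. The names gave 102 identifiers, of which 11 were pseudogenes and were left out, so that 91 of the 46078 identifiers in the table are members. Complex I has 46 of them (38 subunit or related genes and 8 Ndufaf assembly factors), complex II 4, complex III 8, complex IV 16 and complex V, the ATP synthase, 17. The name of Ndufa4 places it in complex I, although its product is now counted with cytochrome oxidase, and Cox4i1, Cyc1 and Cycs lie outside the name rule and are given separately.

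Female C57BL/6 mice gave the bone marrow cells, with no genotype or treatment between groups. Live cells without lineage markers or Sca1 and with the high-affinity IgE receptor FcεRI were sorted singly from a CD34-positive gate (CD34+, 47 cells) and a CD34-negative gate (CD34-, 47 cells). CD34 marks blood stem and progenitor cells on their surface, and the comparison implied by the design is between these gates. The design names 3 mice, but no label ties a cell to a mouse, so each gate is 1 sample and no test between the gates was possible. Fold changes below therefore have no replicate check, and spreads are from cell to cell.

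The respiratory chain passes electrons from NADH (complex I) and succinate (complex II) through ubiquinone to complex III, and through cytochrome c to complex IV, which reduces oxygen. Complexes I, III and IV pump protons across the inner mitochondrial membrane, and complex V uses their return to make ATP. All complexes except II combine nuclear-encoded subunits with subunits encoded in mitochondrial DNA, and the nuclear genes measured here are read from promoters that often carry sites for NRF1, GABP and YY1.

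In each gate 46 cells were kept, with 262944 to 938322 gene reads per cell in the CD34- gate and 374011 to 1154738 in the CD34+ gate. Of a list of 15 basophil markers, all had reads in the kept cells, and their summed level was 50355 reads per 1e6 gene reads (CPM) in the CD34- and 99762 CPM in the CD34+ gate. Prss34, a basophil protease (24143 and 62565 CPM), Mcpt8 (8049 and 21224 CPM) and Cpa3 (1938 and 4871 CPM) carried this difference of the sums, and 10 of the 15 were lower in the CD34+ gate, among them Cd200r3 (3549 and 1279 CPM). Monocyte and dendritic cell markers summed to 507 and 54.8 CPM, nearly all of it Ccr2 (493 and 40.5 CPM), and megakaryocyte markers to 1444 and 932 CPM, nearly all of it Itga2b (1444 and 930 CPM), with Pf4 and Ppbp at 0. Eosinophil markers summed to 174 and 114 CPM (Ear1 at 0) but went both ways. Ccr3 (97.9 and 4.70 CPM) and Siglecf (76.5 and 60.3 CPM) were lower in the CD34+ gate. Prg2 (0 and 48.0 CPM, in 4 CD34+ cells), Epx (0 and 0.200 CPM) and Ear2 (0.0299 and 0.733 CPM) were higher there. B cell markers summed to 64.0 and 49.0 CPM, and neutrophil markers to 19.7 and 67.4 CPM, mostly Lcn2 (Camp, Ltf and Retnlg at 0). Erythroid markers summed to 0.837 and 36.6 CPM (Hba-a1 at 0) and mast cell markers to 0.0299 and 7.33 CPM (Mcpt1, Mcpt2 and Mrgprb2 at 0). Their part in the results below was not tested. Cells 36 and 25 of the CD34- gate had the highest levels of Mpo, a myeloperoxidase gene of granulocyte progenitors, in their gate (2114 and 1655 CPM, with the next cell at 724 CPM). They had been set apart by earlier results of these data. Per read of ERCC, the spike-in RNA added to each reaction, a CD34- cell had a median of 6.87 and a CD34+ cell of 14.4 gene reads.

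The respiratory chain genes took a larger share of gene reads in CD34+ cells. Summed over the 46 cells of a gate they held 162253 of 33444417 gene reads (0.485%) in the CD34- and 201602 of 30031728 (0.671%) in the CD34+ gate. The ratio of the shares was 1.38, or a log2 ratio of 0.47 (95% counting interval 0.46 to 0.48). Intervals on reads are exact Poisson intervals that cover counting error only, since reads of amplified cDNA are not independent molecules. Per cell, the summed level in the CD34- gate had a lowest value of 2061, a median of 4647 (95% interval of the median 4526 to 5110) and a highest value of 8232 CPM. In the CD34+ gate the lowest cell had 2070, the median was 6430 (5592 to 7270) and the highest cell had 13619 CPM. The gates overlapped, with 41 of 46 CD34+ cells above the CD34- median and 10 above the highest CD34- cell. The highest, CD34+ cell 1, also had the lowest ratio of gene to ERCC reads of its gate (2.93), and without it the log2 ratio was 0.44. Without CD34- cells 25 and 36 it was 0.51. With TMM or scran size factors in place of total gene reads it was 0.26 or 0.22.

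Scaled to ERCC reads, the difference was larger. A cell held a median of 31.8 reads of these genes per 1000 ERCC reads (25.0 to 38.3) in the CD34- gate and 87.8 (70.3 to 127) in the CD34+ gate. The ratio of summed reads was 2.70, a log2 ratio of 1.43, and 1.52 without CD34- cells 25 and 36. Of this, the log2 ratio of all gene reads to ERCC reads was 0.97, so the 2 scales differ by the amount of cDNA per spike-in that all genes share. How much of that reflects RNA content and how much the capture of each cell cannot be told apart.

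**Figure D1:**
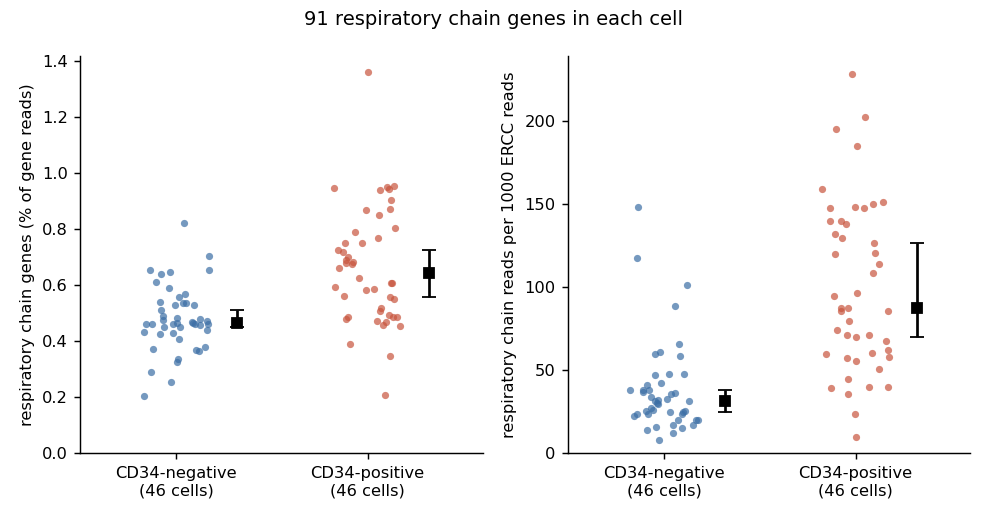
Summed reads of the 91 genes in each kept cell (points, 46 per gate), as percent of gene reads on the left and per 1000 ERCC reads on the right, with the median and its 95% order-statistic interval (squares and bars). The medians were 4647 and 6430 CPM (0.465% and 0.643%) on the left scale and 31.8 and 87.8 on the right, and the gates overlapped on both.

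Of the 91 members, 84 had reads in at least 10 kept cells and entered the counts of single-gene folds. On gene reads, 74 of the 84 had a log2 fold above 0 (CD34+ over CD34-, 1 CPM added to each gate), against 58.9% of the 12460 genes that met the same minimum. At least 2-fold higher were 18 of 84, against 21.7% of all genes, and at least 2-fold lower were 0 of 84, against 10.1% of all genes. With scran size factors 12 of 84 were at least 2-fold higher, against 17.6% of all genes. With 10 CPM added in place of 1 it was 8 of 84, a setting without a computed share of all genes. The share of members at least 2-fold higher was thus close to that of all genes. For 5 of the 18 (Ndufab1, Ndufa5, Ndufa8, Ndufa2 and Ndufc2) leaving out 1 cell brought the fold under 2. The median log2 fold of the 84 members was 0.66, beside 0.19 over all genes. On ERCC reads, 84 of 84 were above 0 (87.6% of all genes) and 72 of 84 at least 2-fold higher (56.8% of all genes), none at least 2-fold lower (2.58%), with a median of 1.63 beside 1.17 over all genes. Single folds on gene reads ran from -0.80 to 2.83. With TMM or scran size factors the median of all genes fell by 0.17 or 0.18. With either, 69 of the 84 members had a fold above 0, against 51.0% (TMM) and 50.4% (scran) of all genes. Cox7c, Ndufa9, Ndufb9 and Sdha turned below 0 with both, Ndufs1 with TMM only and Cox8a with scran only.

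Members of higher level had smaller folds. For the 40 members with a mean of the 2 gates under 50 CPM the median log2 fold was 0.85, beside 0.34 over the 8309 genes of that level. For the 26 members from 50 to 100 CPM it was 0.59, beside 0.06 over 2116 genes. For the 18 members at 100 CPM or more it was 0.30, beside -0.24 over 2035 genes. In each class the members' median lay above that of all genes at the same level. Of the members at 100 CPM or more, 11 of 18 had a fold above 0, against 38.6% of all genes at that level, and 1 was at least 2-fold higher, near the 7.86% of all genes there.

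**Figure D2:**
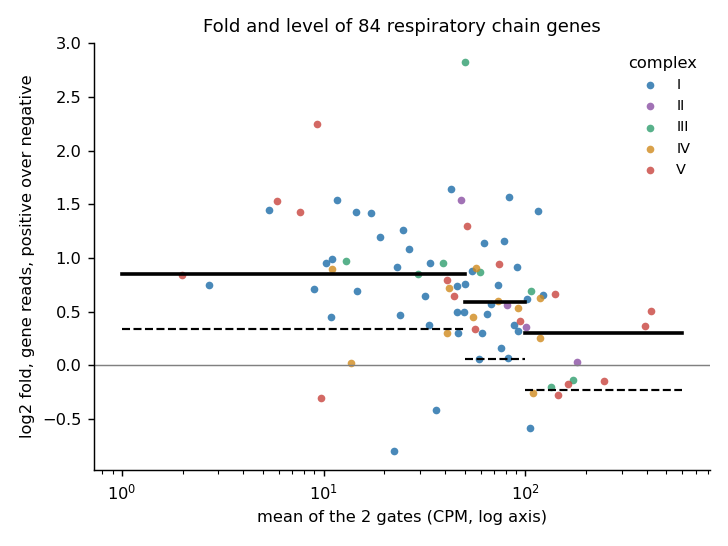
Log2 fold on gene reads of the 84 genes seen in at least 10 kept cells against the mean of their CPM in the 2 gates (log axis), coloured by complex. Solid lines are the members' medians in 3 classes of level (0.85, 0.59 and 0.30) and dashed lines those of all genes (0.34, 0.06 and -0.24).

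By complex, the log2 ratio of summed reads scaled to gene reads was 0.64 for complex I (0.61 to 0.66), 0.38 for complex II (0.33 to 0.43), 0.43 for complex III (0.39 to 0.47), 0.41 for complex IV (0.37 to 0.45) and 0.33 for complex V (0.31 to 0.36). Scaled to ERCC reads the same ratios were 1.6, 1.35, 1.40, 1.38 and 1.30. These ratios cover the members by name, so that of complex IV leaves out Cox4i1 and that of complex I includes Ndufa4. Complex I had the largest ratio of summed reads with all members included. Without the member with most reads of each complex, complexes II and III both had 0.67 on gene reads and 1.63 on ERCC reads, and complex I had 0.64 and 1.6. Its median cell had 1568 CPM (1396 to 1899) in the CD34- and 2454 CPM (2139 to 2753) in the CD34+ gate, and these 2 intervals, over the cells of 1 sample per gate, did not overlap. For complex II the median cell went from 222 (162 to 412) to 393 CPM (298 to 476), for complex III from 440 (374 to 574) to 650 (540 to 806), for complex IV from 584 (513 to 720) to 783 (705 to 843) and for complex V from 1652 (1418 to 1818) to 2063 CPM (1682 to 2398). The CPM intervals of these 4 complexes overlapped between gates, while per 1000 ERCC reads the intervals of all 5 complexes lay apart (for complex II 0.906 to 3.42 and 3.89 to 6.34). With scran size factors the 5 ratios on gene reads were 0.38, 0.15, 0.20, 0.16 and 0.09, all still above 0. The order of complexes II to V changed with the summary used, since ratios of medians over cells were 0.82, 0.56, 0.42 and 0.32 for them and 0.65 for complex I.

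**Figure D3:**
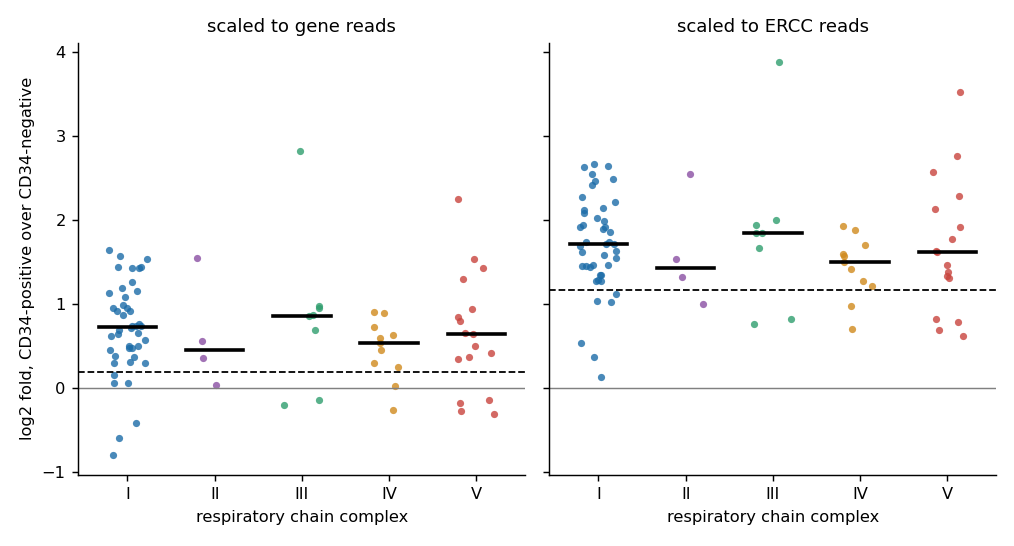
Log2 fold of each of the 84 genes (points) by complex, scaled to gene reads on the left and to ERCC reads on the right, with the median of each complex (bars) and of all 12460 genes (dashed lines, 0.19 and 1.17). Uqcrq of complex III lies highest in both panels, and all points of the right panel are above 0.

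Complex I oxidises NADH and is the largest of the chain. Of its 44 members in the counts, 41 had a fold above 0 (58.9% of all genes) and 12 were at least 2-fold higher, 27.3% and so near the 21.7% of all genes. The 7 nuclear core subunits, which carry the flavin and the iron-sulfur clusters, held 319 CPM in the CD34- and 498 CPM in the CD34+ gate, and all 7 had a fold above 0 without reaching 2-fold (Ndufs1 turned below 0 with TMM factors). Ndufv2, a core subunit of the NADH-binding module, had a log2 fold of 0.92 (62.4 to 119 CPM), and Ndufs1, an iron-sulfur subunit of that module, one of 0.16 (71.5 to 79.7 CPM), which was 0.55 without CD34- cell 42. With 21.7% of all genes past 2-fold, 0 of 7 shows nothing particular to the core, and Ndufv2 and Ndufs3 (0.91) lay just under it.

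Ndufa1, an accessory subunit needed for assembly of the membrane arm, ranged over CD34- cells from 0 to 156 CPM with a median of 36.6. Over CD34+ cells it ranged from 0 to 421 CPM with a median of 108. The ranges overlapped, and the log2 fold was 1.57 (1.45 to 1.69). Ndufv3, an accessory subunit of the NADH-binding module, had a median of 0 and a highest value of 312 CPM in CD34- cells. In CD34+ cells its median was 43.2 and its highest value 281 CPM, for a log2 fold of 1.64 (1.47 to 1.81). It had a read in 19 CD34- and 42 CD34+ cells of 46, and the cell with the highest value was a CD34- cell. Ndufa4 had a median of 51.7 (0 to 211) CPM in CD34- and 149 (0 to 485) CPM in CD34+ cells, a log2 fold of 1.44 (1.34 to 1.54). Per kilobase of annotated transcript it reached the highest level of all members in the CD34+ gate, 369 reads per kilobase per 1e6 gene reads, from 135 in the CD34- gate.

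The other complex I members past 2-fold with at least 10 CPM in a gate were Ndufa12 (log2 fold 1.54), Ndufab1, the mitochondrial acyl carrier protein (1.42), Ndufc1 (1.42), Ndufb6 (1.26), Ndufa5 (1.19), Ndufa8 (1.16), Ndufa2 (1.14) and Ndufc2 (1.08). All had levels from 5.44 to 48.0 CPM in the CD34- gate. Of Ndufa8 reads, 17.1% came from 1 cell, and of Ndufab1 reads 22.7%. With 1 CD34+ cell left out, Ndufa8 fell to 0.77, Ndufab1 to 0.94, Ndufa2 to 0.93 and Ndufa5 to 0.98, and the lowest fold of Ndufc2 with any 1 cell left out was 0.94. For Ndufb6, 31.6% of its 50-base windows are shared with Smim27 on the other strand, and for Ndufa12, 26.2% are shared with the pseudogene Gm15920, so their reads are less certain.

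Ndufa6, an accessory subunit of the LYR protein family, went the other way. It had the highest level per kilobase of all members in the CD34- gate, 332 reads per kilobase per 1e6 gene reads, and 220 in the CD34+ gate. Over CD34- cells it ranged from 0 to 283 CPM with a median of 134, and over CD34+ cells from 0 to 377 CPM with a median of 72.5. The log2 fold was -0.59 (-0.69 to -0.49) on gene reads and 0.37 on ERCC reads, so its direction depended on the scale. Next lowest among the subunits was Ndufa9 at 0.06 (57.7 to 60.1 CPM), with a range of -0.07 to 0.46 over the leave-outs of 1 cell.

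The 8 assembly factors build complex I and are not part of the finished enzyme. Summed, they held 128 CPM in the CD34- and 146 CPM in the CD34+ gate, a log2 ratio of 0.19 (0.11 to 0.28), beside 0.67 (0.64 to 0.69) for the 38 subunit or related genes. TMM factors took the ratio of all members from 0.47 to 0.26, and the same shift would leave the assembly factors without a rise. Ndufaf1 had a log2 fold of -0.80 (28.7 to 16.1 CPM) and Ndufaf7, a mitochondrial methyltransferase, one of -0.42 (41.3 to 30.6 CPM). On ERCC reads these were 0.13 and 0.53. Ndufaf5 (1.45), Ndufaf4 (0.71), Ndufaf8 (0.69), Ndufaf2 (0.45) and Ndufaf3 (0.38) had positive log2 folds, at levels from 2.42 to 37.9 CPM. Ndufaf6 had 0 reads in the CD34- and 332 reads in 9 cells of the CD34+ gate, at least 123-fold higher against a floor of 3 reads over the gate. It missed the minimum of 10 cells, and 26.8% of its reads came from 1 cell. Reads of Ndufaf5 lay in 10 and those of Ndufaf1 in 21 of the 92 kept cells, so their folds rest on few cells, while Ndufaf7 had reads in 49. Single CD34- cells moved the others, since without 1 of them the log2 fold was 2.19 for Ndufaf4, 1.15 for Ndufaf8, 1.10 for Ndufaf2, 0.62 for Ndufaf3 and -0.31 for Ndufaf1.

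Complex II, succinate dehydrogenase, also belongs to the tricarboxylic acid cycle and is wholly nuclear-encoded. Sdhc, a membrane anchor that helps bind heme and ubiquinone, had a median of 0 (0 to 201) CPM in CD34- and 44.3 (0 to 371) CPM in CD34+ cells, with a log2 fold of 1.54 (1.39 to 1.70). Sdhd, the other anchor, had a log2 fold of 0.56 (65.5 to 97.3 CPM), and Sdhb, the iron-sulfur subunit, one of 0.35 (88.1 to 113 CPM), which was 0.11 without CD34+ cell 1. Sdha, the flavoprotein, had 179 CPM in the CD34- and 183 CPM in the CD34+ gate (log2 fold 0.03, -0.04 to 0.11). Sdha had the most reads of the 4, so the summed ratio of complex II without it was 0.67 in place of 0.38. The 2 membrane anchors thus had higher folds than the 2 subunits of the catalytic part.

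Complex III holds the member with the highest fold of the 84. Uqcrq, a small subunit near the ubiquinone site, had a median of 0 and a highest value of 136 CPM in CD34- cells. In CD34+ cells the median was 54.5 and the highest value 387 CPM, with a lowest value of 0 in both gates. Summed, it went from 11.7 to 89.0 CPM, a log2 fold of 2.83 (2.64 to 3.01) on gene reads and 3.88 on ERCC reads. After 200000 gene reads were drawn from each cell, 13 of 46 CD34- and 43 of 46 CD34+ cells had a Uqcrq read. It had the highest fold of the 84 members, and 0% of its 50-base windows are shared with another gene.

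The other 5 complex III members with a positive fold were under 2-fold, from Uqcrc2 (log2 fold 0.69) through Uqcr10 (0.85), Uqcrfs1, the Rieske iron-sulfur protein (0.87), and Uqcr11 (0.95) to Uqcrb (0.97). Uqcrb shares 43.4% of its windows with pseudogenes. The 2 with most reads were lower in CD34+ cells on gene reads and higher on ERCC reads. Uqcrc1, a core protein, had log2 folds of -0.14 (0.12 without CD34- cell 24) and 0.82, and Uqcrh, the hinge protein, of -0.20 and 0.76. The median Uqcrh cell had 125 CPM in both gates, and the median Uqcrc1 cell 41.5 and 97.0 CPM, opposite to the sum.

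Of 16 complex IV members, 11 entered the counts, 10 of them with a fold above 0 (58.9% of all genes) and 0 past 2-fold on gene reads (21.7%). Ndufa4, placed in complex I by its name, is not among them and was past 2-fold. Counted here, it would raise the ratio of complex IV and lower that of complex I. Cox6c (log2 fold 0.90) had a median of 36.4 (0 to 140) CPM in CD34- and 65.6 (5.26 to 310) CPM in CD34+ cells, and every CD34+ cell had a Cox6c read. Cox7c was at 13.5 and 13.7 CPM (0.02). Cox7a2l had a median of 112 (0 to 505) CPM in CD34- and 77.8 (0 to 347) CPM in CD34+ cells. Its log2 folds were -0.26 on gene reads and 0.71 on ERCC reads. Cox4i1, the main nuclear subunit of this enzyme and outside the name rule, had reads in all 92 cells and was at 468 and 439 CPM (-0.09). The 16 members of complex IV together held 626 and 832 CPM. Cox4i1 is not in this sum, and with it the log2 ratio of complex IV would be smaller than 0.41.

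Of 7 isoforms known from other tissues, 6 had few or no reads. Ndufa4l2, Cox6a2, Cox7b2 and Cox8c had 0 reads in both gates, which allows up to 0.0897 CPM in the CD34- and 0.0999 CPM in the CD34+ gate (3 reads). Cox8b had 1 read and 0, and Cox7a1, the heart and muscle form, 3 and 9 reads. Cox6b2, known from testis, had 247 and 438 reads, or 7.38 and 14.6 CPM (0.89), and after drawing was seen in 9 and 23 of 46 cells. Cox6b2 was the only one of these to enter the counts, and per kilobase and 1e6 gene reads it had 17 and 33.5 reads beside 154 and 224 for Cox6b1, the common form. Cox4i2, the alternative to Cox4i1, had 0 reads.

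In complex V the subunits of the catalytic head and stalk did not share a direction on gene reads. Atp5a1 (α subunit) had 345 and 489 CPM (log2 fold 0.50) and Atp5b (β subunit) 342 and 441 CPM (0.37). These 2 had the most reads of all members, 7.20% and 6.78% of the total. Atp5c1 (γ subunit, -0.28), Atp5d (δ subunit, -0.17) and Atp5f1 (b subunit of the outer stalk, -0.15) were lower in CD34+ cells on gene reads and higher on ERCC reads (0.69, 0.79 and 0.82). Atp5f1 shares 38.7% of its windows with other genes, so its reads are less certain. Atp5e, the ε subunit, was at 50.6 and 98.1 CPM (0.94). The median Atp5b cell had 352 CPM in the CD34- and 361 CPM in the CD34+ gate, and the median Atp5c1 cell 85.4 and 111 CPM. For Atp5d the median cell had 105 and 144 CPM, so that for Atp5c1 and Atp5d the median cell and the sum differed in direction. Without CD34- cell 13 their log2 folds were -0.10 and -0.016.

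Atp5o, the oligomycin-sensitivity subunit, had a median of 1.15 (0 to 106) CPM in CD34- and 51.3 (0 to 219) CPM in CD34+ cells, with a log2 fold of 1.29. Of its windows, 50.3% are shared with other annotated genes, so its reads are less certain. Among these genes are another entry named Atp5o on the same strand and D430001F17Rik on the other strand. Atp5k, the e subunit, had a log2 fold of 1.43 (3.68 to 11.6 CPM). Atp5s, known as coupling factor B, had one of 2.25 (2.57 to 16 CPM), with 37.1% of its reads in 1 cell, a read after drawing in 3 and 11 of 46 cells, and folds of 1.52 to 3.54 with 1 cell left out. Atp5l, the g subunit, had the lowest of the complex, -0.31 (10.8 to 8.56 CPM), but 84.8% of its windows are shared with pseudogenes.

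The c subunit, which forms the rotor ring, is encoded by 3 genes with the same mature protein. Atp5g3 held nearly all of their reads, at 109 and 173 CPM (log2 fold 0.66), with a median of 93.9 (0 to 442) CPM in CD34- and 152 (0 to 493) CPM in CD34+ cells. Atp5g1 was at 2.54 and 9.26 CPM (1.53) and was seen after drawing in 7 and 32 of 46 cells. Atp5g2 was at 1.14 and 2.83 CPM (0.84, and 0.21 without CD34+ cell 15), with 87.4% of its windows shared with pseudogenes. Summed over the 3 genes the log2 ratio was 0.72 (0.63 to 0.80).

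Detection of the members was higher in CD34+ cells, as was that of other genes. After 200000 gene reads were drawn from each cell, a CD34- cell had reads of 21 to 70 of the 91 members with a median of 43 (41 to 47). A CD34+ cell had reads of 35 to 78 with a median of 68 (62 to 70). Without drawing the medians were 45.5 and 71. Over all genes the median cell had reads of 4521 genes in the CD34- and 6519 in the CD34+ gate, and per 100 genes detected the members numbered 0.965 (0.931 to 1.01) and 1.02 (0.956 to 1.05), with overlapping intervals. By gene, 82 of the 84 members in the counts were seen in more CD34+ than CD34- cells, against 80.9% of all genes in the counts, and 2 (Atp5f1 and Atp5l) in fewer. The 95% Clopper-Pearson intervals of the 2 shares, over the cells of 1 sample per gate, did not overlap and were higher in CD34+ cells for 34 of the 84, against 19.0% of all genes. The median member was seen in 47.8% of CD34- and 82.6% of CD34+ cells.

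**Figure D4:**
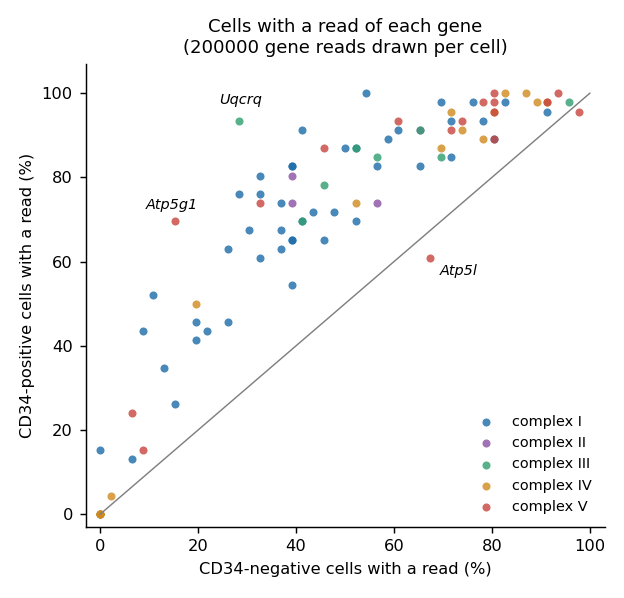
Share of the 46 CD34- cells (x axis, percent) and of the 46 CD34+ cells (y axis, percent) with a read of each of the 91 genes after drawing 200000 gene reads per cell, coloured by complex, with the line of equal shares. Of the 91 genes, 84 lie above the line, and Uqcrq and Atp5g1 lie among the farthest from it.

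The sums of the complexes were also set against each other from cell to cell. In the CD34+ gate the Spearman correlation of summed CPM over 46 cells was 0.73 between complexes I and IV, 0.67 between I and V and 0.66 between IV and V, while that of complexes II and IV was 0.08. In the CD34- gate the same 4 values were 0.42, 0.17, 0.23 and -0.08. Of the 10 pairs of complexes 9 had the higher value in the CD34+ gate, but I and III (0.31 in both) and II and V (0.22 against 0.21) hardly differed, and III and IV were lower there (0.20 against 0.25). The cells of a gate share one sort and the constraint that CPM sum to a fixed total, reads per cell were more often 0 in the CD34- gate, and the difference between gates was not tested. The summed members ran with mitochondrial ribosomal proteins at 0.71 in the CD34+ and 0.25 in the CD34- gate, and with cytosolic ribosomal proteins at 0.54 and 0.32. Their correlation with gene reads per cell was 0.14 and 0.04.

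Of 5481 other genes seen in at least 46 kept cells, the 10 whose CPM followed the summed members most closely within both gates, by the smaller of the 2 Spearman correlations over 46 cells each, were Gm4617 (0.54), Ptma (0.47), Gm16184 (0.46), Fis1 (0.45), Dpagt1 (0.45), Rps2 (0.44), Psmd2 (0.44), Rpl14 (0.44), Gm9800 (0.43) and Eny2 (0.42). Ptma, prothymosin alpha, was at 31.4 and 118 CPM (log2 fold 1.88), whereas Fis1, a mitochondrial fission protein, was at 231 and 211 CPM (-0.13). The other 9 had folds above 0, from 0.49 (Gm16184) upward, and on ERCC reads Fis1 was also above 0 (0.84).

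The 13 protein genes of the mitochondrial genome are the partners of these nuclear genes in complexes I, III, IV and V, and their sum differed by more. Summed, they were at 2983 CPM in the CD34- and 6488 CPM in the CD34+ gate, a log2 ratio of 1.12 (1.11 to 1.14). All 13 had a fold above 0, against 58.9% of all genes. Per cell the CD34- gate ranged from 396 to 7655 CPM with a median of 2630, and the CD34+ gate from 2367 to 17787 CPM with a median of 6451. The nuclear genes had 1.63 reads per mitochondrial genome read in the CD34- and 1.03 in the CD34+ gate. By complex these ratios went from 1.5 to 0.94 for complex I, from 0.55 to 0.32 for complex III, from 0.68 to 0.54 for complex IV and from 328 to 220 for complex V, whose 2 mitochondrial genes had 171 and 289 reads. In 6 of 46 CD34- and 20 of 46 CD34+ cells the mitochondrial genome's genes held more reads than the 91 nuclear genes. By single genes the 2 lists were closer, with a median log2 fold of 0.79 over the 13 mitochondrial and 0.66 over the 84 nuclear genes, and 4 of the 13 at least 2-fold higher (21.7% of all genes).

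**Figure D5:**
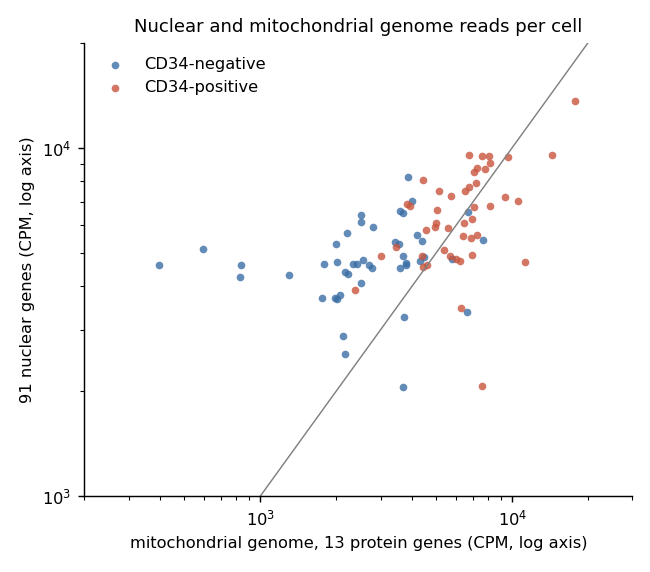
Summed CPM of the 91 nuclear genes (y axis, log) against the 13 protein genes of the mitochondrial genome (x axis, log) in each kept cell, with the line of equal levels. Below the line lie 6 of 46 CD34- and 20 of 46 CD34+ cells.

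The other genes of the pathway were counted from lists by function. Of all genes in the counts, 58.9% had a fold above 0, 21.7% were at least 2-fold higher and 10.1% at least 2-fold lower, and a list whose shares are near these shows nothing about the list. Of cytochrome c and its reductase, Cyc1, which carries the heme of complex III, was at 57.0 and 88.5 CPM (log2 fold 0.62), and Cycs, cytochrome c itself, at 0.269 and 4.10 CPM (2.01) with 43.9% of its reads in 1 cell. Of 31 further assembly factors of the chain, 24 had a fold above 0 and 8 were at least 2-fold higher, with a median of 0.42. Sdhaf3 (0.359 to 13.6 CPM) and Cox10, an enzyme of heme a synthesis (2.0 to 19.3 CPM), were highest, and Surf1 (95.4 to 48.8 CPM) and Coa5 (179 to 97.0 CPM) lowest. Without 1 cell the log2 fold of Sdhaf3 fell from 3.43 to 1.45. Of 13 tricarboxylic acid cycle genes, 11 were above 0 and 4 at least 2-fold higher, with a median of 0.43. Idh3a, the catalytic subunit of NAD-dependent isocitrate dehydrogenase, was at 14.2 and 69.0 CPM (2.20) and Fh1, fumarase, at 17.5 and 47.0 CPM (1.37), while the partner subunits Idh3g (-0.29) and Idh3b (-0.20) were lowest by summed reads, although their median cells were higher in the CD34+ gate (41 and 94.0 CPM for Idh3g, 39.6 and 70.3 CPM for Idh3b).

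Of 9 genes of the pyruvate dehydrogenase complex and its regulators, 6 were above 0, 3 at least 2-fold higher and 1 at least 2-fold lower. Pdk2, a kinase that inactivates the complex, was at 88.2 and 14.4 CPM (log2 fold -2.53), and Pdp1, a phosphatase that activates it, at 0.897 and 39.3 CPM (4.41). Pdhx was at 2.42 and 25.9 CPM (2.97) and Pdk3 at 113 and 65.2 CPM (-0.78), with a median cell of 3.10 and 13.7 CPM. Of 16 carriers and import genes, 11 were above 0 and 5 at least 2-fold higher, led by the chaperonins Hspe1 (2.16) and Hspd1 (1.92), with Tomm22 (-0.70, with a median cell of 15.5 and 37.5 CPM) and the phosphate carrier Slc25a3 (-0.42) lowest. Of 6 genes for uncoupling and related fates, 3 were above 0. Higd1a was at 1.82 and 21.5 CPM (3.00), with 42.9% of its reads in 1 cell, Atpif1, the inhibitor of ATP synthase, at 38.3 and 94.9 CPM (1.28), and Hif1a at 89.3 and 78.3 CPM (-0.19), with a median cell of 29.1 and 57.7 CPM. Of 77 mitochondrial ribosomal protein genes, 67 were above 0 and 22 at least 2-fold higher, with a median of 0.61 and a range from Mrps27 (2.70) and Mrps15 (2.10) to Mrpl16 (-0.52) and Mrpl33 (-0.84). Of 79 cytosolic ribosomal protein genes, 71 were above 0 and 15 at least 2-fold higher, with a median of 0.55, with Rpl9 (1.90) and Rps27a (1.70) highest and Rps9 (-0.17) among the lowest. The medians of both ribosomal lists were close to the 0.66 of the respiratory chain genes.

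Of 12 regulators of these genes in the counts, 6 had a fold above 0 and 6 below (58.9% of all genes above 0), 5 were at least 2-fold higher (21.7% of all genes) and 2 at least 2-fold lower (10.1%). Leaving out 1 cell ended the 2-fold calls of Nrf1 (-0.85), Esrra (-0.92) and Myc (0.52 without CD34+ cell 1), took Yy1 above 0 (0.085) and moved Polrmt to 1.58. Nrf1, a factor that binds many respiratory chain promoters, was at 105 and 46.9 CPM (log2 fold -1.15), and Esrra, a nuclear receptor of the same programme, at 34.2 and 14.3 CPM (-1.20). Gabpa (-0.27) and Gabpb1 (-0.38), the subunits of GABP, Yy1 (-0.20) and Tfb2m (-0.58) were also below 0. On ERCC reads Nrf1 (-0.20) and Esrra (-0.29) stayed below 0, and Gabpa (0.69), Gabpb1 (0.57), Yy1 (0.76) and Tfb2m (0.29) were above it. For Nrf1 the median cell had 12.5 CPM in the CD34- and 21.9 CPM in the CD34+ gate, opposite to the sum, and for Yy1, Gabpa and Gabpb1 the median cells likewise went from 4.87 to 24.6 CPM, from 0 to 17 CPM and from 1.39 to 5.23 CPM. Above 0 were Tfb1m (3.31, 0.239 to 11.3 CPM, reads in 1 and 16 cells), the coactivator Pprc1 (2.62, 4.66 to 33.9 CPM), Ppargc1b (1.67, 0.120 to 2.56 CPM), Tfam, which packages mitochondrial DNA and starts its transcription (1.54, 15.2 to 46.1 CPM), Myc (1.08, 59.5 to 127 CPM) and Polrmt, the mitochondrial RNA polymerase (0.43, 30.1 to 41 CPM). Ppargc1a had 2 reads and 1 read.

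Promoters of the members were read from RefSeq (GRCm38.p6), from 250 bases before to 50 bases after each annotated start, to show the sites that these regulators are named for. Of the 91 members, 89 matched a RefSeq gene and 74 had a promoter sequence. The NRF1-type letters, GCGC and TGCGC with 1 base of any kind between them, were searched on both strands like the others and occurred in 25.7% of the 74, against 5.19% of all 27025 genes with a promoter. CCGGAAG (GABPA-type) occurred in 24.3% against 9.93%, and AANATGGCG (YY1-type) in 14.9% against 2.76%. GGGCGG (SP1-type) occurred in 44.6% against 38.2%, and TATAAA in 9.46% against 15.7%. An NRF1-, GABPA- or YY1-type match was present in 41 of the 74 members, the other 33 had none of these, and matches of different motifs overlapped in 1 member, Ndufs3. A match is a description of these letters, not of a bound site.

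Among 21 members with at least 10 CPM in a gate and an NRF1- or GABPA-type match in the 150 bases before the start, the 2 with the highest and the 2 with the lowest fold are printed here to show such letters before members at both ends of the range. They are the 150 bases before the start of Atp5k (chr5:108434400-108434549, log2 fold 1.43), Ndufa5 (chr6:24527691-24527840, 1.19), Atp5c1 (chr2:10080433-10080582, -0.28) and Ndufaf1 (chr2:119662835-119662984, -0.80), all on the minus strand and printed 5′ to 3′ in the direction of the gene. Capitals mark the NRF1-type match in the first 3 and the GABPA-type match in the last.
Atp5k: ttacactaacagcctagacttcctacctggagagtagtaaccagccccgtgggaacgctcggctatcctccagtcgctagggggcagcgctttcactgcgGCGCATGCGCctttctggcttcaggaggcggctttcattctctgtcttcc
Ndufa5: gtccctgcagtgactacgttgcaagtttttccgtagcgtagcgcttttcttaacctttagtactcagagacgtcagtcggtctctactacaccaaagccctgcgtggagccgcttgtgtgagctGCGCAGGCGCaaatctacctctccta
Atp5c1: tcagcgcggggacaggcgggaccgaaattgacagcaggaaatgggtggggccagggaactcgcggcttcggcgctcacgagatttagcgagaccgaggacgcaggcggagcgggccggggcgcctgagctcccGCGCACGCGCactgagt
Ndufaf1: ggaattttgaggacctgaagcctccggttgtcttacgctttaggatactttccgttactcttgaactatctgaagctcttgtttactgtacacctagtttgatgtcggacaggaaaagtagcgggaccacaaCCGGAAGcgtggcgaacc

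Members with and without these letters were set side by side by their median fold. The 19 members in the counts with an NRF1-type match had a median log2 fold of 0.74 and the 52 without one of 0.61. With a GABPA-type match the median was 0.64 in 18 members, and without it 0.66 in 53. With a YY1-type match it was 0.41 in 11 members, and without it 0.72 in 60.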

How the data were processed

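The data are single-cell RNA-seq read counts. Per the labels' protocols, cDNA was made by a Smart-seq2-type method with ERCC spike-in RNA and 19 amplification cycles and read as 50-base single-end reads. Alignment with GSNAP 2015-09-29 to mm10 and counting with HTSeq 0.5.3p3 are named in the submitters' processing notes, and the annotation and strand setting are not given in the sources used here, so overlapping and antisense genes are uncertain. The deposited table holds whole counts, not normalized, for 46078 genes, 92 ERCC sequences and the counter's summary categories. Of all reads, 32.4% were on genes and 3.97% on ERCC sequences, and 33.0% without a gene, 7.68% ambiguous and 22.9% unaligned reads were left out of library sizes.

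Symbols were matched by identifier for 45143 genes. The cell filter (50000 gene reads, 1000 genes with a read, under 20% mitochondrial and under 50% ERCC reads) kept 92 of 94. Cells were sorted singly, and no doublet caller was run. Reads were summed over a gate and divided by its gene reads (CPM) or ERCC reads, and log2 folds used a pseudocount of 1 CPM or 1 read per 1e6 ERCC reads. Sums have exact Poisson and shares exact Clopper-Pearson 95% intervals, and medians have order-statistic intervals. Intervals of ratios and folds pair opposite limits of the 2 sums and are wider than 95% intervals. Levels per kilobase used the median coding transcript length of GENCODE M21, whose 50-base windows gave the shared sequence. No test was run, since each gate is 1 sample. Named are the 2 highest and 2 lowest folds of each complex or list with reads in at least 10 cells and 10 CPM in a gate, every member past 2-fold at that level, complex II, the c subunit genes, assembly factors, tissue isoforms and regulators, and other members by role. A few genes that this rule names are not reported here. The members, lists, markers and alternatives were chosen with earlier results of these data known. The interval and fold calculations were tested on simulated data.

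Alternatives were no cell filter, ratios of medians, leaving out cells or the member with most reads, cells numbered 7 to 42, scran size factors, edgeR TMM factors, other scaling, pseudocounts of 0.1 and 10, other filters and other depths. Leave-outs of 1 cell for single genes and TMM and scran for the counts of members past 2-fold were added after seeing the data. The software was R 4.3.3 with scran 1.30.0 and edgeR 4.0.16 (for TMM), and Python 3.11.15 with matplotlib 3.10.9, pandas 2.3.3, scipy 1.17.1 and numpy 2.4.6.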

Additional observations from a re-analysis of the deposited data

Results flagged for a closer look

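Some reads of this gene family lay outside the comparisons. The 11 pseudogenes matched by name and left out had 2356 reads in the kept cells of both gates, beside 162253 and 201602 reads of the members. Most were on Uqcrh-ps1 (398 reads in CD34-negative and 313 in CD34-positive cells), Uqcrh-ps2 (260 and 180), Cox6c2 (178 and 244) and Ndufs6b (194 and 198). There are no control samples to set these reads against. The cells left out for few gene reads differed in what they held. CD34-negative cell 20 had 9 reads of 8 members among 24565 gene reads (0.0366%), and CD34-positive cell 3 had 242 reads of 57 members among 31504 gene reads (0.768%).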

How the results depend on the processing

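No paired analysis was possible because the cell numbers only name cells and no label ties a cell to a mouse. The log2 ratios of all members and of complexes I to V stayed above 0 under every setting run here, while single members changed sign with the size factors (Cox7c, Ndufa9, Ndufb9, Sdha, Ndufs1 and Cox8a). Of the recomputed values, 69 moved beyond the counting interval or, for counts, by over 1.5 times, and 72 did not. The cause was not tested. Log2 ratios are given for all members and then complexes I to V, where they moved. With scran size factors they were 0.22, 0.38, 0.15, 0.20, 0.16 and 0.090 on gene reads, and with TMM factors 0.26, 0.43, 0.17, 0.22, 0.20 and 0.13. Without mitochondrial genome and ribosomal RNA locus genes in the scaling, all members had 0.48. Without CD34-negative cells 25 and 36 they were 0.51, 0.67, 0.50 (III), 0.46 and 0.37 on gene reads and 1.52, 1.68, 1.43, 1.51, 1.47 and 1.38 on ERCC reads. In cells numbered 7 to 42 they were 0.42, 0.59, 0.28, 0.35 and 0.27 (V) on gene reads, and 1.30 (II) and 1.46 (IV) on ERCC reads. Ratios of medians were 0.82 (II) and 0.56 (III) on gene reads and 1.47 (all), 1.64, 1.62, 1.44 and 1.65 (II to V) on ERCC reads. Without the member with most reads they were 0.67 (II), 0.67 (III) and 0.29 (V), and 1.63, 1.63 and 1.25 on ERCC reads.

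Leaving out each cell in turn gave ranges on gene reads of 0.44 to 0.50 for all members, 0.59 to 0.66 for complex I, 0.29 to 0.47 for II, 0.40 to 0.52 for III, 0.37 to 0.44 for IV and 0.31 to 0.36 for V. On ERCC reads the ranges were 1.40 to 1.5, 1.56 to 1.65, 1.23 to 1.42, 1.35 to 1.48, 1.33 to 1.46 and 1.26 to 1.38. Members at least 2-fold higher on gene reads numbered 8 with a pseudocount of 10 and 12 to 24 in the others, against 18. With scran 12 were at least 2-fold higher (17.6% of all genes) and 1 (Ndufaf1) at least 2-fold lower (13.7% of all genes). The difference in members with a read per cell was 11.5 at 10 reads and 21 to 25.5 in the others, against 25. Reads carry no molecular identifiers, and members with reads in few cells, such as Ndufaf5 (10 of 92), are the least certain.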
